A study of Takifugu obscurus with 9 samples.

Results

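The genes described here encode the proteasome of the obscure puffer (Takifugu obscurus), together with its inducible immuno-subunits and its activators, measured in whole kidney after poly(I:C). This compound is a laboratory-made double-stranded RNA, and vertebrate cells respond to it much as to a virus. Members were the assembled features, each a cluster of transcripts treated as 1 gene, whose best protein match came from a fish and whose pathway annotation holds the term Proteasome. Of 46444 features in the deposited table, 86 carry that term and 58 of them have a fish match and a name. Those 58 share 48 names. Each name was represented by its most abundant feature, taking the mean over the 9 libraries. The names place 7 members in the alpha ring of the core, 9 in the beta ring, 2 among the immuno-subunits, 6 among the ATPases of the cap, 13 among the other cap proteins and 4 among the activators. A further member is pomp, an assembly factor, and the remaining 6 carry the name of a protein outside the proteasome. Except where all 48 are named, the results concern the 42 proteasome proteins. The other 28 features with the term fell outside the rule, 25 of them because their best match was not a fish protein.

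The proteasome is the barrel-shaped protease that degrades proteins tagged with ubiquitin. Alpha subunits form its gated outer rings, beta subunits form its inner rings and hold the cutting sites, and a cap of ATPases and other proteins binds, unfolds and feeds in the substrate. In mammals, interferon induces the subunits psmb8, psmb9 and psmb10, which take the place of the cutting subunits psmb5, psmb6 and psmb7 and change which peptides are made for presentation by MHC class I. Interferon also induces the activator formed by psme1 and psme2, an alternative to the cap. No feature meeting the rule is named psmb10 or psme2.

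RNA came from the kidneys of fish 3 months old, with 3 libraries labelled as controls at 0 h, 3 at 12 h and 3 at 48 h after poly(I:C). The labels name no strain, sex or genotype. Whether control fish received an injection is not stated. Controls exist at 0 h alone, so poly(I:C) and time after handling cannot be told apart. Nor do the labels say whether libraries of a group are separate fish, so p-values measure only how far these libraries spread, and that spread may be technical. The values are TPM, transcript abundances corrected for transcript length and library size. The deposited table gives no read counts, and the total depth is unknown. A single read on a feature of 300 nucleotides is worth 0.39 to 0.51 TPM, so values of a few TPM on short features rest on few reads.

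Libraries differed in ways their groups do not explain. Control libraries 1 and 2 were closer to each other (r = 0.985 on the log2 scale over 11329 features) than any other pair within a group (r = 0.857 to 0.967). At 12 h, library 3 lay between libraries 1 and 2 in 47.8% of features and in 27 of the 42 proteasome proteins. Markers of kidney were present, with 11 of 11 listed proximal tubule genes and 5 of 5 podocyte genes matched and none of them at 0 in all libraries. The summed proximal tubule level was 392 to 976 TPM at 0 h, 342 to 365 TPM at 12 h and 269 to 517 TPM at 48 h. The podocyte sum was 117 to 145 TPM, 45.6 to 59.7 TPM and 73.1 to 163 TPM, and the sum of 3 matched macrophage markers of 8 listed was 780.2 to 1021 TPM, 349.6 to 528 TPM and 858 to 921 TPM. Most of the macrophage sum was c1qc, which averaged 611, 244 and 689 TPM at 0 h, 12 h and 48 h. In the same order mrc1 averaged 91.5, 49.5 and 94.3 TPM, and mpeg1 averaged 171, 143 and 102 TPM. Fewer cells of a type and less RNA per cell cannot be told apart in such bulk samples. The 4 matched T and NK cell markers of 10 listed summed to 60.2, 61.6 and 429 TPM in the 3 controls and to 109 to 189.8 TPM at 12 h, while the 5 endothelial markers stayed between 51.7 and 60.6 TPM in all 9 libraries.

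Proteasome genes were more abundant in kidney at 12 h than at 0 h in every part of the complex. Summed over the 42 genes, the level was 4641, 4589.8 and 4834 TPM in the controls, 7737, 8012 and 7681 TPM at 12 h and 5663, 5125 and 5592 TPM at 48 h. The 3 groups did not overlap, and the sum made up 0.471%, 0.785% and 0.549% of the mean library total at 0 h, 12 h and 48 h. At 12 h, 24 of the 48 members rose and none fell (limma on log2(TPM + 1), Benjamini-Hochberg adjusted p under 0.05 over 45473 features), where 0.592% of all features tested passed in that direction. All 24 are proteasome proteins. In 39 of the 42, every 12 h library exceeded every control, against 8.25% of all features. All 42 estimates were above 0, with a median log2 fold change of 0.71, beside -0.07 for all features. The median log2 difference from the control mean was 0.70, 0.77 and 0.71 in 12 h libraries 1, 2 and 3. Rises that passed were 1.56-fold to 2.73-fold on the TPM + 1 scale.

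**Figure D1:**
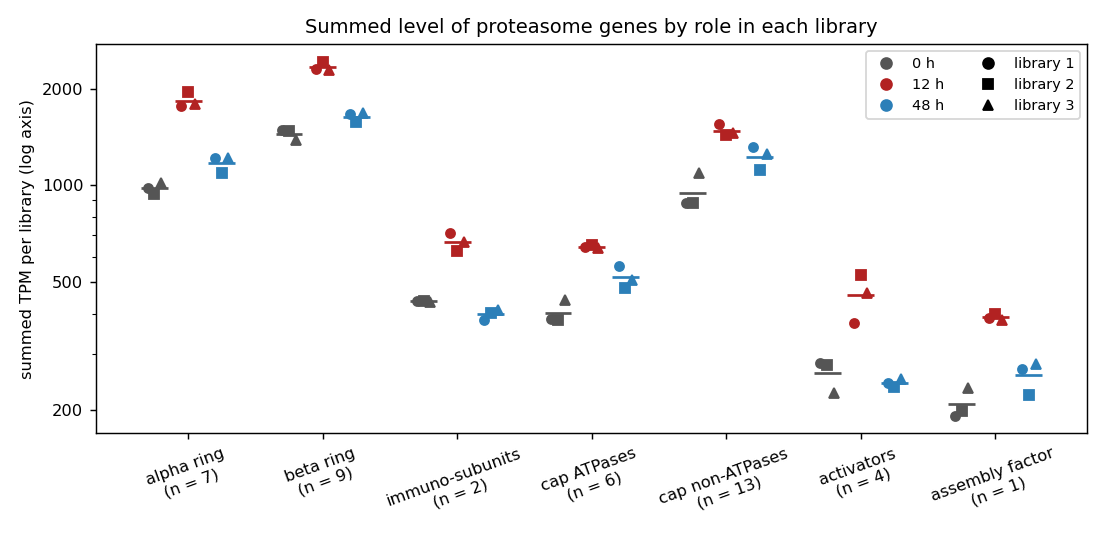
Summed TPM of the genes of each role (log axis) in each of the 9 libraries, coloured by time, with the library number as the symbol and the group mean as a line. All 12 h symbols lie above the controls in every role, and at 48 h the immuno-subunits (398 TPM on average) lie below the controls (437 TPM), while the cap ATPases (518 TPM) lie above theirs (403 TPM).

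Markers moved beside this rise. At 12 h, 0 marker genes in the 11 cell type lists rose, and those that fell, against 0.831% of all features tested, were 3 of 11 proximal tubule genes, 1 of 5 podocyte, 1 of 3 macrophage, 1 of 5 neutrophil and 1 of 4 erythroid genes. The lists for T and NK cells, B cells, thrombocytes, distal tubule, muscle and endothelium had 0 calls in either direction. From 12 h to 48 h, 2 podocyte, 2 macrophage and 1 neutrophil genes rose, against 1.07% of all features, and 0 marker genes fell. In control libraries 1, 2 and 3, the 4 erythroid genes summed to 1438, 1497 and 6328 TPM. The 5 distal tubule genes summed to 745, 749.8 and 283 TPM. The proteasome sum differed by 5.33% between its lowest and highest control. Its parts other than the immuno-subunits differed more, and some of them in opposite directions. In the same libraries the other cap proteins summed to 880, 879 and 1092 TPM and the activators to 281, 277 and 227 TPM. The part of cell composition in the rise was not tested.

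The call count at 12 h rests on several libraries. Leaving out control library 1 or 2 gave 1 or 2 calls, leaving out 12 h library 2 or 3 gave 4 or 1, and leaving out 48 h library 2 or 3 gave 13 or 11, while averaging control libraries 1 and 2 gave 2, or 0 with 12 h library 3 also left out. Of the 24 calls, 11 held in 5 or more of the 10 fits that left out a library or averaged the similar controls, and psme1, adrm1b, psmc4, psmd2, psmd6 and psmd11a held in 1 each. The direction did not rest on single libraries: all 42 estimates were above 0 at 12 h in each of 22 alternative fits in which the gene could be fitted. The median log2 fold change of the 42 stayed between 0.65 and 0.83. Some of these fits cannot change the estimate and only repeat it. Among them are those without the trend, with a replicate block, with only the 2 groups compared, or without a 48 h library.

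**Figure D2:**
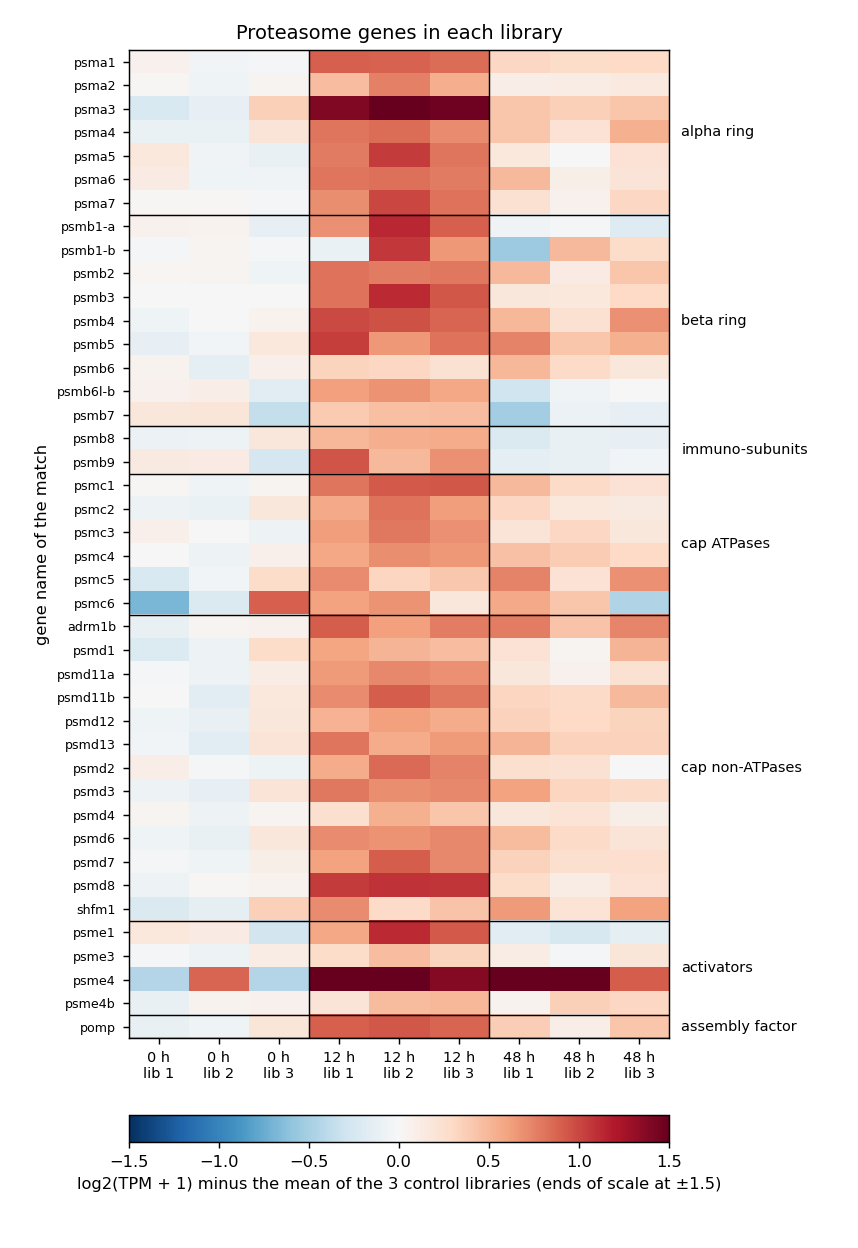
Log2(TPM + 1) of each of the 42 proteasome genes in each library minus the mean of its 3 control libraries, grouped by role, with red above and blue below the controls. The 12 h columns are red in nearly every row. In the 48 h columns psmb1-a, psmb6l-b, psmb7, psmb8, psmb9 and psme1 are pale or blue, while most cap rows are a paler red than at 12 h. No gene was called at 48 h against 0 h.

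In the controls the most abundant members were shfm1 (299 ± 68.3 TPM), psmb6l-b (282 ± 27.2 TPM), psmb6 (277 ± 21.4 TPM) and psmb8 (247 ± 26.3 TPM, SD, n = 3), whose libraries overlapped. The median level of a gene was 141 TPM in the alpha ring and 174 TPM in the beta ring, against 67.6 TPM for the cap ATPases and 52.0 TPM for the other cap proteins.

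In the alpha ring, whose N-terminal tails form the gate, 6 of 7 genes rose at 12 h and 7 of 7 had every 12 h library above every control. The largest change was in psma3, which measured 109.8, 118 and 165 TPM at 0 h, 339, 369 and 355 at 12 h and 172, 166 and 171 at 48 h. Its lowest 12 h library was at 2.05 times its highest control, and the log2 fold change of 1.45 ± 0.16 (SE, limma adjusted p = 0.00682) passed in all 10 fits that left out a library or averaged the similar controls, the only member to do so. psma1 was even across replicates, at 148, 137 and 138 TPM at 0 h, 262, 259.7 and 252 at 12 h and 175, 170.4 and 174 at 48 h, with a log2 fold change at 12 h of 0.87 ± 0.11 (SE, limma adjusted p = 0.0115). For psma5, the least abundant of the ring, the levels were 93.6, 80.5 and 77.1 TPM at 0 h, 144, 173 and 147 at 12 h and 92.9, 84.0 and 96.8 at 48 h, and it rose by 0.88 ± 0.14 log2 units (SE, limma adjusted p = 0.0253). psma7, the most abundant at 0 h, measured 197, 197 and 191 TPM at 0 h, 317, 392 and 343 at 12 h and 229, 203 and 242 at 48 h and rose by 0.84 ± 0.13 log2 units (SE, limma adjusted p = 0.0229). In all of these the 12 h group stood clear of both other groups. psma4 was present at 133, 133 and 164 TPM at 0 h, 250.3, 256 and 234 at 12 h and 192, 166 and 207 at 48 h, a rise at 12 h of 0.78 ± 0.14 log2 units (SE, limma adjusted p = 0.0348), and every 48 h library was still above every control. psma6 also rose, with a log2 fold change of 0.80 ± 0.14 (SE, limma adjusted p = 0.0322), and psma2 measured 131, 123 and 133 TPM at 0 h, 178, 219 and 189 at 12 h and 138, 139 and 143 at 48 h. The psma2 change at 12 h was the smallest of the ring, at 0.59 ± 0.13 (SE, limma adjusted p = 0.0561), and missed the threshold.

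Between 12 h and 48 h, psma1, psma3, psma5 and psma7 fell, with log2 fold changes of -0.57 ± 0.11 (SE, limma adjusted p = 0.0403), -1.06 ± 0.16 (SE, limma adjusted p = 0.0195), -0.75 ± 0.14 (SE, limma adjusted p = 0.0343) and -0.64 ± 0.13 (SE, limma adjusted p = 0.0459). All 7 alpha genes had every 48 h library below every 12 h library. At 48 h, 5 of the 7 still had every library above every control, with a ring median log2 fold change of 0.25 and 0 calls.

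In the beta ring, 5 of 9 genes rose at 12 h. They were the structural subunits psmb1-a, psmb2, psmb3 and psmb4 and the cutting subunit psmb5, which has the chymotrypsin-like activity. psmb3 measured 96.4, 97.2 and 95.7 TPM at 0 h, 170.2, 210.4 and 185 at 12 h and 109, 108 and 118 at 48 h, and its controls lay within 1.56 TPM of each other. It rose by 0.96 ± 0.13 log2 units (SE, limma adjusted p = 0.0142) and fell by 0.75 ± 0.13 log2 units (SE, limma adjusted p = 0.0262) from 12 h to 48 h. The gene psmb4 measured 185, 194 and 200.5 TPM at 0 h, 384, 375 and 353 at 12 h and 274, 226 and 309.9 at 48 h, and psmb2 measured 189.8, 192 and 178 TPM at 0 h, 329.8, 321 and 323 at 12 h and 261, 204 and 249 at 48 h. Both were higher in every 48 h library than in every control, and their log2 fold changes at 12 h were 0.94 ± 0.14 (SE, limma adjusted p = 0.0199) and 0.80 ± 0.13 (SE, limma adjusted p = 0.0263). psmb1-a differed from them at 48 h, with 183, 181 and 159 TPM at 0 h, 280.4, 383 and 326 at 12 h and 168, 171 and 152 at 48 h. It rose at 12 h by 0.91 ± 0.15 log2 units (SE, limma adjusted p = 0.0253), fell by 0.997 ± 0.15 log2 units (SE, limma adjusted p = 0.0176) from 12 h to 48 h, and its 48 h libraries overlapped the controls. A separate member, psmb1-b, is a fragment of 482 nucleotides at 4.46, 4.72 and 4.47 TPM at 0 h, 4.18, 10.5 and 7.71 at 12 h and 2.80, 6.80 and 5.74 at 48 h, with overlapping groups.

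The cutting subunits did not all show the same values. psmb5 measured 65.6, 69.5 and 79.5 TPM at 0 h, 148, 113 and 126 at 12 h and 119.7, 95.5 and 103 at 48 h, with a rise at 12 h of 0.83 ± 0.15 log2 units (SE, limma adjusted p = 0.0374), and its 48 h libraries overlapped the 12 h ones. psmb6, which has the caspase-like activity, was among the most abundant members, at 287, 253 and 293 TPM at 0 h, 349.8, 344 and 324 at 12 h and 393, 339 and 311 at 48 h. Its change at 12 h was the smallest of the 42, with a log2 fold change of 0.29 ± 0.13 (SE, limma adjusted p = 0.323), although every 12 h library exceeded every control. A gene matched to a beta type-6-B-like protein, psmb6l-b, had a level like that of psmb6 in the controls, at 293, 302 and 251 TPM at 0 h, 432, 450.3 and 419.9 at 12 h and 229, 271 and 282 at 48 h. It was not called at 12 h, with 0.62 ± 0.13 (SE, limma adjusted p = 0.0574), and fell by 0.74 ± 0.13 log2 units (SE, limma adjusted p = 0.032) from 12 h to 48 h. The place of psmb6l-b in the beta ring was read from its name, which does not say whether the subunit is constitutive or inducible. psmb7, the subunit with the trypsin-like activity, was represented by a feature matched to a beta type-7-like protein, at 161 ± 32.2 TPM, 215 ± 5.80 TPM and 135 ± 21.5 TPM (mean ± SD, n = 3), and was called in no comparison.

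The 2 members placed by name among the immuno-subunits were abundant in the controls. psmb8, which in mammals takes the place of psmb5, measured 231, 234 and 278 TPM at 0 h, 348, 361 and 362 at 12 h and 212, 229 and 227 at 48 h. Every 12 h library was above, and every 48 h library below, all 3 controls. Its log2 fold change at 12 h was 0.53 ± 0.12 (SE, limma adjusted p = 0.0725), which missed the threshold, and at 48 h against 0 h it was -0.15 ± 0.12 (SE, limma adjusted p = 0.659). psmb8 fell by 0.68 ± 0.12 log2 units (SE, limma adjusted p = 0.0318) from 12 h to 48 h. psmb9, which takes the place of psmb6, measured 206, 205 and 157 TPM at 0 h, 362, 264 and 304 at 12 h and 169.9, 174 and 183 at 48 h. Its 12 h libraries were all above the controls, with 0.71 ± 0.16 (SE, limma adjusted p = 0.0696), and it fell by 0.80 ± 0.16 log2 units (SE, limma adjusted p = 0.0425) from 12 h to 48 h. Neither was called against 0 h at either time. Their summed level was 437, 438 and 435 TPM in the controls, 710.0, 625 and 666 TPM at 12 h and 382, 403 and 409.5 TPM at 48 h. These summed controls differed by at most 3.29 TPM, but the single genes varied more, with a control SD of 26.3 TPM for psmb8 and 27.8 TPM for psmb9. In control library 3 psmb8 was higher and psmb9 lower than in the other controls. The 48 h libraries of psmb9 overlapped its controls.

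Of the 6 ATPases of the cap, which pull the substrate in, psmc1, psmc3 and psmc4 rose at 12 h. psmc1 measured 100.2, 94.3 and 102 TPM at 0 h, 173, 188 and 189 at 12 h and 138, 120.3 and 115 at 48 h. Its log2 fold change at 12 h was 0.88 ± 0.13 (SE, limma adjusted p = 0.0177). psmc3 was at 68.1, 63.9 and 61.2 TPM at 0 h, 99.5, 112 and 104 at 12 h and 73.5, 79.9 and 72.3 at 48 h, with a log2 fold change at 12 h of 0.70 ± 0.12 (SE, limma adjusted p = 0.0336). psmc4 was at 52.6, 49.6 and 55.6 TPM at 0 h, 78.8, 85.8 and 83.4 at 12 h and 71.7, 68.5 and 64.9 at 48 h, with 0.64 ± 0.12 (SE, limma adjusted p = 0.0397). In these 3 genes the 12 h libraries stood above all others. psmc2, at 66.9, 65.6 and 79.7 TPM at 0 h, 105, 125 and 109 at 12 h and 87.7, 79.0 and 77.3 at 48 h, just missed the threshold with 0.67 ± 0.14 (SE, limma adjusted p = 0.0525). psmc5 had a different course, at 93.3, 106 and 133 TPM at 0 h, 179, 137 and 146 at 12 h and 184, 127 and 177 at 48 h. Its 48 h libraries spanned the 12 h range, and the log2 fold change from 12 h to 48 h was 0.07 ± 0.19 (SE, limma adjusted p = 0.862). The feature for psmc6 under the rule is a fragment of 363 nucleotides, at 2.54, 3.90 and 9.61 TPM at 0 h, 7.66, 8.07 and 5.38 at 12 h and 7.45, 6.57 and 3.15 at 48 h. Its groups overlapped. At 48 h, 0 of the 6 were called against 12 h or against 0 h, and 4 had every library below all 12 h libraries.

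Of the 13 other cap proteins, 8 rose at 12 h. psmd8, a subunit of the cap, changed most, with 52.8, 56.2 and 57.9 TPM at 0 h, 116, 119 and 118 at 12 h and 67.5, 60.0 and 65.0 at 48 h. The 12 h libraries lay within 2.82 TPM of each other and the lowest of them at 2.01 times the highest control, with a log2 fold change of 1.07 ± 0.12 (SE, limma adjusted p = 0.00686) that passed in 8 of the 10 fits with a library left out or controls averaged. It was also the only one of the 13 called from 12 h to 48 h, with -0.87 ± 0.12 (SE, limma adjusted p = 0.0159). psmd7, at 51.0, 49.6 and 55.3 TPM at 0 h, 79.4, 98.4 and 86.2 at 12 h and 66.1, 61.5 and 62.0 at 48 h, rose by 0.75 ± 0.13 log2 units (SE, limma adjusted p = 0.0337). The paralogues psmd11a and psmd11b were alike in level. psmd11a measured 35.7, 34.8 and 39.5 TPM at 0 h, 57.4, 61.1 and 59.4 at 12 h and 41.4, 38.5 and 43.1 at 48 h, and psmd11b measured 32.7, 29.0 and 36.7 TPM at 0 h, 53.9, 62.2 and 57.5 at 12 h and 41.0, 40.2 and 46.3 at 48 h. They rose by 0.68 ± 0.13 log2 units (SE, limma adjusted p = 0.0374) and 0.80 ± 0.14 log2 units (SE, limma adjusted p = 0.0336). psmd2, a scaffold of the base of the cap, measured 44.9, 41.1 and 39.5 TPM at 0 h, 61.9, 76.0 and 70.3 at 12 h and 49.3, 49.2 and 41.9 at 48 h and rose by 0.72 ± 0.14 log2 units (SE, limma adjusted p = 0.0433). psmd3 measured 81.4, 78.7 and 97.7 TPM at 0 h, 149, 139.8 and 142 at 12 h and 130.4, 107 and 104 at 48 h, with a rise of 0.74 ± 0.14 log2 units (SE, limma adjusted p = 0.0413) and 48 h libraries still above all controls. psmd6 rose too, by 0.70 ± 0.14 log2 units (SE, limma adjusted p = 0.0433).

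Some cap genes had 48 h libraries that were all above the controls. adrm1b encodes a ubiquitin receptor of the cap and measured 34.0, 38.1 and 38.8 TPM at 0 h, 70.2, 56.9 and 63.4 at 12 h and 63.4, 50.0 and 61.9 at 48 h. It rose at 12 h by 0.76 ± 0.15 log2 units (SE, limma adjusted p = 0.0431), and at 48 h every library remained above every control, with a log2 fold change of 0.64 ± 0.15 (SE, limma adjusted p = 0.403) that missed the threshold and a change from 12 h of -0.12 ± 0.15 (SE, limma adjusted p = 0.674). psmd13 followed the same order, at 97.3, 90.0 and 115 TPM at 0 h, 175, 147 and 157 at 12 h and 143, 128 and 128 at 48 h, and had a log2 fold change at 12 h of 0.66 ± 0.14 (SE, limma adjusted p = 0.0557), which missed the threshold. The smallest cap protein, shfm1, was the most abundant member at 0 h and 48 h. It measured 252, 267 and 377 TPM at 0 h, 482, 358 and 397 at 12 h and 458, 338 and 446 at 48 h. Its best protein match is a hypothetical protein of Acipenser ruthenus, so it is a member through its pathway term, and its place in the cap was read from its name. Control library 3 overlapped both later groups for this gene, and its log2 fold change was 0.48 ± 0.20 (SE, limma adjusted p = 0.278) at 12 h and 0.48 ± 0.20 (SE, limma adjusted p = 0.44) at 48 h. The ubiquitin receptor psmd4 measured 49.3, 45.1 and 49.0 TPM at 0 h, 56.4, 69.6 and 64.2 at 12 h and 54.0, 55.3 and 50.8 at 48 h, and like the scaffold psmd1 it was called in no comparison.

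Among the activators, psme1, the alpha subunit of the interferon-inducible activator, rose at 12 h. Its levels were 228, 222 and 168 TPM at 0 h, 306, 445 and 389 at 12 h and 181, 174 and 185 at 48 h. The 12 h libraries were spread but all above the controls, with a log2 fold change of 0.87 ± 0.17 (SE, limma adjusted p = 0.0446), and psme1 fell by 1.06 ± 0.17 log2 units (SE, limma adjusted p = 0.024) from 12 h to 48 h, the largest fall of the 42. psme3, a nuclear activator of the same family, was at 38.2, 37.2 and 42.2 TPM at 0 h, 47.6, 54.6 and 49.5 at 12 h and 42.2, 38.4 and 44.7 at 48 h and was not called at 12 h, with 0.36 ± 0.13 (SE, limma adjusted p = 0.227). psme4b, a large activator that binds the core alone, measured 14.4, 16.3 and 16.4 TPM at 0 h, 18.1, 22.1 and 22.6 at 12 h and 16.3, 20.4 and 19.7 at 48 h, with 0.39 ± 0.16 (SE, limma adjusted p = 0.264). The feature named psme4 is a fragment of 227 nucleotides, listed at 0 in 2 controls, at 0, 1.49 and 0 TPM at 0 h, 3.19, 5.66 and 2.52 at 12 h and 3.11, 3.34 and 1.54 at 48 h. No fold is read from it. pomp, which guides assembly of the core, was at 193, 199 and 236 TPM at 0 h, 388, 398 and 381 at 12 h and 269, 223 and 279 at 48 h and rose at 12 h by 0.90 ± 0.14 log2 units (SE, limma adjusted p = 0.0213).

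At 48 h against 0 h, 0 of the 48 members were called by limma, with or without its trend, where 0.0088% of all features passed upward. At an unadjusted p under 0.05 there were 18 members and 5038 of 45473 features. In 23 of the 42 proteasome proteins every 48 h library still exceeded every control, against 12.3% of all features, and in 1, psmb8, every 48 h library was lower, against 3.95%. The median log2 fold change was 0.25, beside 0.13 for all features. The 6 genes with an estimate below 0 were psmb1-a, psmb6l-b, psmb7, psmb8, psmb9 and psme1, at -0.09, -0.11, -0.24, -0.15, -0.10 and -0.18, and all 6 were below 0 in each of 22 alternative fits. For psmb7 this is the beta type-7-like feature. A further psmb7 feature, matched to beta type-7, had 0.18 ± 0.12 (SE, limma adjusted p = 0.581), with every 48 h library above every control. Another beta type-7 match had -0.08 ± 0.19 (SE, limma adjusted p = 0.897). All 7 alpha subunits, all 6 ATPases and all 13 other cap proteins had estimates above 0. Of the 36 genes above 0, 33 stayed so in all 22 alternative fits. Some of the fits, such as those without the trend or without a 12 h library, cannot change these estimates and only repeat them.

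From 12 h to 48 h, 11 of the 48 members, all of them proteasome proteins, fell and none rose, where 0.611% of all features passed downward. In 32 of the 42, every 48 h library was below every 12 h library, against 7.61% of all features. The median log2 fold change was -0.47, beside 0.21 for all features. Of the 11, 8 had also risen at 12 h against 0 h, while psmb6l-b, psmb8 and psmb9 had not passed that test. These comparisons share the 12 h libraries. The count was 0 without 12 h library 2 or 3 or 48 h library 2 or 3, 2 without 48 h library 1, 4 without control library 1 or 2, and 17 without control library 3, through the spread estimated over all groups.

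**Figure D3:**
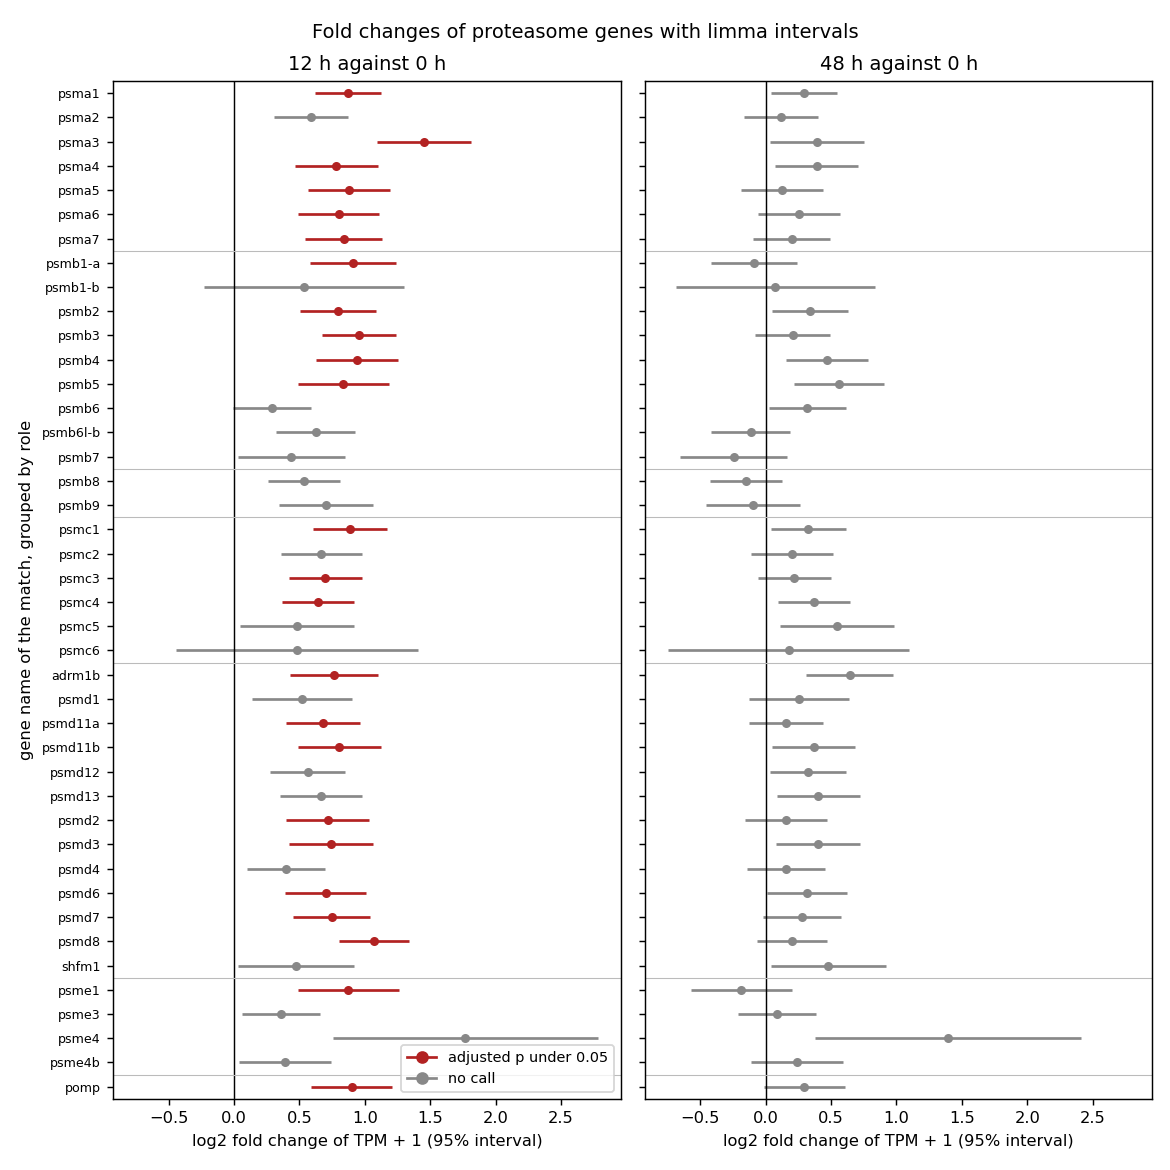
Log2 fold changes on the TPM + 1 scale with 95% limma intervals for the 42 proteasome genes, at 12 h against 0 h (left) and 48 h against 0 h (right), with calls in red. At 12 h all points lie to the right of 0, with 24 called, and at 48 h none is called and 6 lie to the left of 0. The 2 panels share the control libraries, and psme4, with 2 controls at 0, has the widest interval.

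The balance of inducible to constitutive subunits was compared within each library. The ratio of psmb8 to psmb5 was 3.52, 3.36 and 3.49 in the controls, 2.36, 3.19 and 2.88 at 12 h and 1.77, 2.39 and 2.19 at 48 h. It was lower in every 12 h and every 48 h library than in every control, with a mean log2 ratio, on TPM + 1, of 1.78 ± 0.04 at 0 h, 1.47 ± 0.22 at 12 h and 1.07 ± 0.22 at 48 h (SD, n = 3). The two-sided exact permutation p was 0.1 for each later time against 0 h, the smallest that 3 against 3 can give, and 0.171 after Benjamini-Hochberg adjustment over 12 ratio tests. The ratio of psmb9 to psmb6 was 0.72, 0.81 and 0.538 in the controls, 1.03, 0.767 and 0.94 at 12 h and 0.433, 0.514 and 0.589 at 48 h. Both later groups overlapped the controls (exact permutation p = 0.2, adjusted 0.218), and the 12 h and 48 h libraries did not overlap each other (exact permutation p = 0.1, adjusted 0.171). The mean log2 ratio at 12 h minus that at 0 h was -0.30 for psmb8 to psmb5 and 0.41 for psmb9 to psmb6, a difference between pairs that was not tested.

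A further 2 pairs were chosen after their values were seen. The ratio of psmb6l-b to psmb6 was 1.02, 1.19 and 0.857 at 0 h, 1.23, 1.31 and 1.3 at 12 h and 0.582, 0.801 and 0.906 at 48 h, and that of psme1 to psme3 was 5.97, 5.97 and 3.99, then 6.44, 8.15 and 7.85, then 4.29, 4.52 and 4.13. Both were higher in every 12 h library than in every control and every 48 h library (exact permutation p = 0.1 each, adjusted 0.171).

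**Figure D4:**
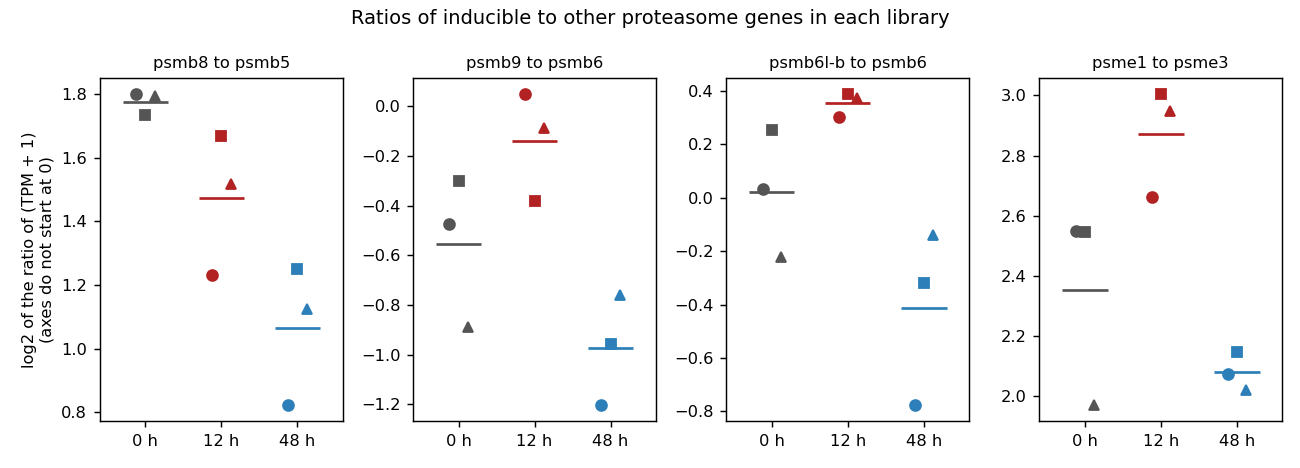
Log2 ratio of TPM + 1 for each pair of genes in each library, coloured by time (grey 0 h, red 12 h, blue 48 h), with circles, squares and triangles for libraries 1, 2 and 3 and the group mean as a line. The psmb8 to psmb5 ratio is lower in all 12 h and 48 h libraries than in the controls, and the other pairs are highest on average at 12 h and lowest at 48 h.

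Further features bear on the members. Of the 48 names, 8 hold more than 1 feature. Besides the feature that stood for psmb7, a feature matched to beta type-7 measured 79.0, 80.6 and 86.4 TPM at 0 h, 154, 227 and 195 at 12 h and 60.3, 84.5 and 91.8 at 48 h. This one rose at 12 h by 1.20 ± 0.19 log2 units (SE, limma adjusted p = 0.0253) and fell by 1.28 ± 0.19 log2 units (SE, limma adjusted p = 0.0195) from 12 h to 48 h. Another beta type-7 match was at 129, 119 and 128 TPM at 0 h, 166, 158 and 149 at 12 h and 149.8, 139.8 and 136 at 48 h, with 0.33 ± 0.12 (SE, limma adjusted p = 0.218) at 12 h. The second psmd4 feature, at 32.5, 30.1 and 35.5 TPM at 0 h, 62.8, 59.2 and 55.4 at 12 h and 42.5, 38.8 and 45.1 at 48 h, rose at 12 h by 0.84 ± 0.13 log2 units (SE, limma adjusted p = 0.0253), while the feature that stood for the name had 0.40 ± 0.13 (SE, limma adjusted p = 0.18). The second psma6 feature was at 80.6, 79.2 and 106 TPM at 0 h, 120.0, 142 and 129 at 12 h and 83.0, 84.2 and 85.0 at 48 h and was not called, with 0.56 ± 0.15 (SE, limma adjusted p = 0.105) at 12 h. The second psmd12 feature was low, at 5.99, 5.83 and 7.69 TPM at 0 h, 5.51, 6.21 and 5.90 at 12 h and 6.83, 9.01 and 7.53 at 48 h, and its estimate at 12 h was below 0, at -0.12 ± 0.19 (SE, limma adjusted p = 0.813). The other 5 averaged 2.01 TPM or less. With features of a name summed, 27 members were called at 12 h. How the authors' quantification divided reads between such similar features is not given in the sources used here.

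Outside the rule, 3 features with the term averaged over 50 TPM and the other 25 under 5 TPM. The orthology column names the most abundant as PA28 beta (psme2), the partner of psme1, although no protein match is listed for it. That column gives the same entry to emc8, set aside here as a protein outside the proteasome, so the label is uncertain. Levels of the feature labelled PA28 beta were 621, 566 and 408 TPM at 0 h, 684, 878 and 788 at 12 h and 285, 369.5 and 404 at 48 h. Its log2 fold change was 0.57 ± 0.20 (SE, limma adjusted p = 0.19) at 12 h, and it fell by 1.16 ± 0.20 log2 units (SE, limma adjusted p = 0.0257) from 12 h to 48 h, with every 48 h library below every control. A long feature named PSMC6, matched to a lemur protein, was at 93.1, 93.3 and 97.1 TPM at 0 h, 138, 157 and 156 at 12 h and 109, 105 and 95.2 at 48 h and rose at 12 h by 0.66 ± 0.12 log2 units (SE, limma adjusted p = 0.0381). PSMD14, the deubiquitinase of the cap, matched to a pigeon protein, was at 62.6, 62.9 and 66.5 TPM at 0 h, 113, 125 and 112 at 12 h and 81.0, 81.5 and 73.9 at 48 h and rose at 12 h by 0.86 ± 0.12 log2 units (SE, limma adjusted p = 0.0177). All 3 were higher in every 12 h library than in every control.

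**Figure D5:**
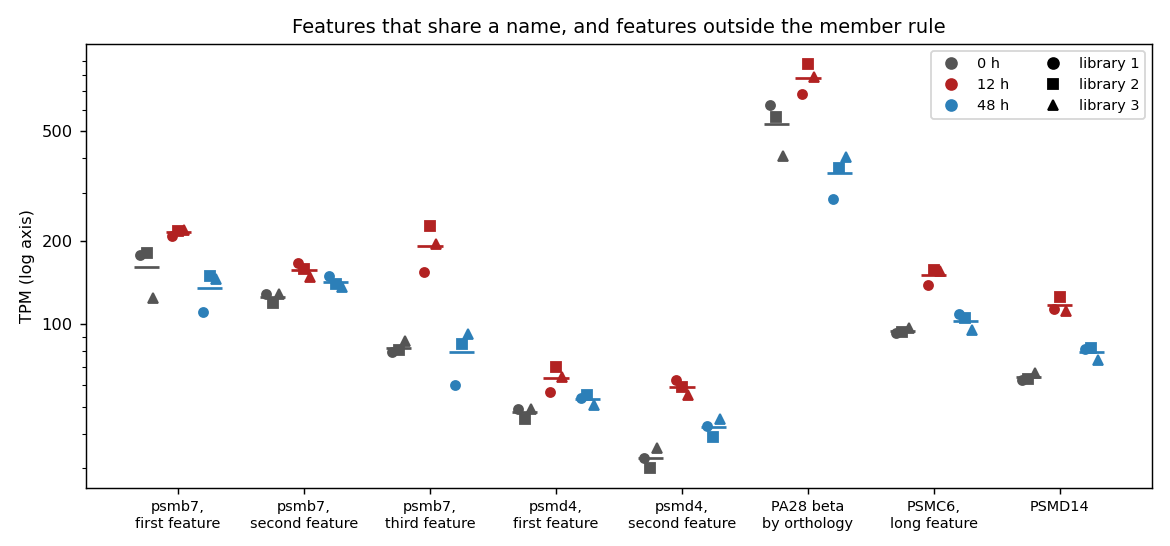
TPM (log axis) in each library for the features named psmb7 and psmd4 and for the 3 abundant features outside the rule, with colours for time, symbols for library and lines for group means. The third psmb7 feature shows the widest gap between 0 h and 12 h (82.0 against 192 TPM). The feature labelled PA28 beta by orthology alone is lower at 48 h (353 TPM) than at 0 h (532 TPM).

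Genes that assemble, induce or supply the proteasome were read from 3 lists. Of 11 matched genes for assembly and transcription (14 listed), 4 rose at 12 h and none fell, where 0.592% of all features rose and 0.831% fell. Their median log2 fold change was 0.39, beside -0.07 for all features. Of the genes that rose, pomp is a member already counted among the 24, and the others were the assembly chaperones psmg1, psmg2 and psmg3. psmg2 measured 23.6, 23.2 and 23.1 TPM at 0 h, 39.2, 43.9 and 43.8 at 12 h and 24.1, 26.0 and 25.0 at 48 h and rose by 0.83 ± 0.13 log2 units (SE, limma adjusted p = 0.0204). psmg3 was at 39.0, 37.5 and 38.1 TPM at 0 h, 59.4, 76.4 and 71.2 at 12 h and 38.2, 37.2 and 43.2 at 48 h, with a rise of 0.83 ± 0.14 log2 units (SE, limma adjusted p = 0.0305). psmg1 was at 37.9, 34.3 and 39.9 TPM at 0 h, 57.9, 65.2 and 56.7 at 12 h and 46.9, 47.1 and 46.5 at 48 h, with a log2 fold change at 12 h of 0.67 ± 0.13 (SE, limma adjusted p = 0.0406). From 12 h to 48 h psmg2 and psmg3 fell, with log2 fold changes of -0.73 ± 0.13 (SE, limma adjusted p = 0.0262) and -0.78 ± 0.14 (SE, limma adjusted p = 0.0307). nfe2l1, a transcription factor that raises proteasome genes when mammalian proteasomes are inhibited, had 0.39 ± 0.16 (SE, limma adjusted p = 0.266) at 12 h, and its relative nfe2l2 had 0.04 ± 0.18 (SE, limma adjusted p = 0.944).

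Of 18 matched genes of ubiquitin supply and delivery (26 listed), 3 rose at 12 h, against the same 0.592%, with a median log2 fold change of 0.40. They were adrm1, which is the member adrm1b already counted among the 24, sqstm1, a carrier of ubiquitinated proteins, and usp14, a deubiquitinase bound to the cap. sqstm1 measured 134, 144 and 143 TPM at 0 h, 246, 225 and 226 at 12 h and 154, 146 and 144 at 48 h, rose by 0.73 ± 0.12 log2 units (SE, limma adjusted p = 0.0253) and fell by 0.65 ± 0.12 log2 units (SE, limma adjusted p = 0.0307) from 12 h to 48 h. usp14 was at 36.3, 38.6 and 36.5 TPM at 0 h, 56.5, 65.8 and 59.7 at 12 h and 49.1, 41.5 and 44.3 at 48 h, a rise of 0.69 ± 0.13 log2 units (SE, limma adjusted p = 0.0397). The ubiquitin-conjugating enzyme ube2d2 fell by 0.99 ± 0.19 log2 units (SE, limma adjusted p = 0.0409) from 12 h to 48 h. Of 13 matched genes for peptide presentation and its inducers (15 listed), 0 passed at 12 h by limma, against 0.592% of all features upward and 0.831% downward. From 12 h to 48 h 3 of them fell, against 0.611% of all features. Those 3 were the MHC class I light chain b2m, the peptide transporter tap1 and its bridge to MHC class I, tapbp. tap1 measured 50.0, 48.7 and 29.0 TPM at 0 h, 65.8, 123 and 94.8 at 12 h and 24.4, 32.2 and 32.9 at 48 h, a change at 12 h of 1.13 ± 0.27 (SE, limma adjusted p = 0.0811) and from 12 h to 48 h of -1.60 ± 0.27 (SE, limma adjusted p = 0.0258). b2m had -0.71 ± 0.11 (SE, limma adjusted p = 0.0205) and tapbp -0.86 ± 0.17 (SE, limma adjusted p = 0.0446) from 12 h to 48 h. No gene of the 3 lists was called at 48 h against 0 h, and their medians there were 0.16, 0.11 and -0.24. Each call named here was lost in at least 5 of the 10 fits that left out a library or averaged the similar controls.

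The 6 members with another protein's name (emc8, mitd1, mppe1, rbpms, rbpms2 and ttc39a) gave 0 calls in the 3 comparisons. Their summed level was 112 to 175 TPM at 0 h, 136 to 159 TPM at 12 h and 102 to 166 TPM at 48 h, and their median log2 fold change at 12 h was -0.18. mppe1 measured 9.28, 8.63 and 5.79 TPM at 0 h, 3.75, 9.84 and 7.18 at 12 h and 9.24, 6.20 and 2.92 at 48 h. ttc39a measured 1.45, 1.24 and 2.88 TPM at 0 h, 1.53, 0.23 and 0.54 at 12 h and 2.71, 3.85 and 2.99 at 48 h. rbpms, with the smallest change of the 48 at 12 h, was at 110.0, 93.6 and 54.1 TPM at 0 h, 91.7, 78.2 and 101 at 12 h and 102, 79.9 and 46.2 at 48 h. In 4 of the 6 the 12 h libraries overlapped the controls.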

How the data were processed

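Kidney RNA was extracted with Trizol and sequenced on Illumina libraries, per the labels' protocols. The deposited table gives TPM per feature of a Trinity assembly (per the feature names), with 9 value columns, each named for 1 library. The unit is not named in the file and was taken as TPM from column totals of 993873 to 996068. The aligner, quantifier and versions are not given in the sources used here. Members and gene lists were chosen with earlier results of these data known. Names were folded for case.

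Of 46444 features, 45473 reached 1 TPM in 3 or more libraries and were tested, among them all 48 members. Values were transformed as log2(TPM + 1), so fold changes of low genes are understated. They were fitted with limma 3.58.1 in R 4.3.3 over all 9 libraries with 1 coefficient per group, eBayes with trend and robust options, and Benjamini-Hochberg adjustment over all features. A call is an adjusted p under 0.05. Fold changes carry their SE, and groups hold 3 libraries each. Ratios within a library were compared by two-sided exact permutation tests. Depth cannot be recovered from TPM, so no counting intervals are given.

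Values in every library are given for all immuno-subunits and activators, for the members of each other role with the 3 smallest adjusted p in a comparison or the highest or lowest mean over the 9 libraries, and for those of all 48 with the highest or lowest estimate in a comparison. psmb6, psmb7, psmd1, psmd4, psmd6, psma2, psma6, rbpms and pomp are named beside them for their role, their call or a small change, and nfe2l1 and nfe2l2 were chosen after their values were seen.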

Additional observations from a re-analysis of the deposited data

How the results depend on the processing

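The number of members called depended on the settings, and their direction did not. In every alternative run that made any, calls at 12 h against 0 h were higher and those at 48 h against 12 h lower. Runs with 0 calls, listed below, say nothing of the direction of calls. Some settings, such as leaving out the trend, can change the count but not the estimates. At 12 h against 0 h the count of 24 became 12 with quantile normalization, 2 without the trend, 7 with only the 2 groups compared, 2 with control libraries 1 and 2 averaged, 0 with 12 h library 3 also left out, and 1 to 26 with each library left out in turn. It was 23 to 31 with medians equalised, other filters, other pseudocounts, or another choice of feature per name. At 48 h against 12 h the count of 11 became 7 with quantile normalization, 17 with medians of all features equalised, 18 with a filter of 5 TPM, 0 without the trend, 6 with only the 2 groups compared, 4 with the controls averaged, 0 with 12 h library 3 also left out, and 0 to 17 with each library left out. At 48 h against 0 h it stayed 0 in all alternatives. The cause was not tested. With the replicate number as a replicate block, 8 and 3 members were called at 12 h against 0 h and 48 h against 12 h. No sign of pairing by number was seen: deviations of same-numbered libraries correlated at -0.10 to 0.15 (9 pairs) and of others at -0.14 to 0.15 (18 pairs). The labels state no pairing, and so few correlations of deviations from means of 3 libraries cannot exclude it.

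Equalising the library medians moved the median log2 fold change of all features from -0.07 to 0.05 at 12 h against 0 h and from 0.21 to 0.02 at 48 h against 12 h. The split of all calls into higher and lower went from 269 and 378 to 320 and 212, and from 485 and 278 to 225 and 588. The changes between groups in the psmb8 to psmb5 and psmb9 to psmb6 log2 ratios kept their sign with each library left out. They also did so under other pseudocounts, which move genes at these levels only little. Summing the features of a name could not change these ratios, since none of their genes has a further feature. No value is given for psmb10 to psmb7, since no feature is named psmb10. The fragments psmb1-b, psmc6 and psme4 were at a few TPM and were called in no comparison.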
